A study of Drosophila melanogaster with 6 samples.

Results

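The heat shock and chaperone genes described here are 10 named Drosophila genes: the small heat shock protein genes Hsp22, Hsp23, Hsp26, Hsp27 and l(2)efl, the Hsp70-class genes Hsp68, Hsc70-3 and Hsc70-4, the Hsp90 gene Hsp83, and Hsf, which encodes the heat shock transcription factor. They were chosen by name, and a probe set was taken where the array annotation gave it the symbol of the gene. By that rule 7 of the 10 genes had a probe set of their own, out of 10843 genes that had one on the array. These 7 genes had 8 probe sets, of which 7 were above a signal of 40 on at least 1 array and were tested.

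The other members were measured less directly. Hsp22 was represented by 3 probe sets that the annotation also assigns to CG4456, which RefSeq places over the same stretch of the genome, so its signal cannot be separated from that of CG4456. Hsc70-4 had 2 further probe sets shared with Acbp3. The annotation gave no symbol to the probe set that RefSeq lists among the synonyms of Hsp83. It is described here as Hsp83 outside the rule, because in 111 of 111 cases where both sources named a probe set in this way they named the same gene. No probe set was named for Hsp23.

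Heat shock proteins are chaperones, which keep other proteins from aggregating and help them to fold. In unstressed cells Hsf is held inactive, and on heat or other protein damage it forms trimers that switch on the Hsp70 genes, Hsp68 and the small heat shock genes. The cognate genes Hsc70-3 and Hsc70-4 are instead transcribed in most cells without stress. Small heat shock proteins hold unfolded clients without using ATP, whereas Hsp70-class and Hsp90-class proteins act on them in ATP-driven cycles, the Hsp70 class with J-domain partners.

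RNA came from adult heads of flies that combined uas-lark with the pan-neuronal driver elav-gal4 (elav-gal4; uas-lark/+ males mixed with elav-gal4/+; uas-lark/+ females), and of controls that carried the driver without uas-lark (elav-gal4 males mixed with elav-gal4/+ females, from a cross to w1118). Both genotypes were kept at 25°C under 12 h of light and 12 h of darkness and frozen at ZT6 (lights come on at ZT0, so this was 6 h into the light phase), and no age is given. Each genotype was hybridized to 3 arrays, which the series describes as repeats of labeling on 1 total RNA sample, so on that description p-values compare 1 RNA sample with 1 other and carry no information on spread between flies. Array 1 of LARK overexpression differed from arrays 2 and 3 in the values given below, so whether the spread between arrays is labeling spread alone is not known. LARK was driven only in neurons, whereas heads also hold glia, fat body, muscle and other cells, and in such bulk RNA fewer cells of a type and less RNA per cell cannot be told apart.

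Arrays of the same replicate number shared a hybridization time and a scaling, so the scaling cancels in a difference within a replicate number but not between numbers. Signals are linear intensities in arbitrary units, with precision limited by having 3 arrays of a genotype. Array 1 of LARK overexpression stood apart: its correlation with control array 1 (0.912) was above that with LARK overexpression arrays 2 (0.877) and 3 (0.892), whereas LARK overexpression arrays 2 and 3 correlated at 0.946 and control arrays at 0.921 to 0.931. The signal of lark itself was 265, 143 and 166 on LARK overexpression arrays 1, 2 and 3 and 224, 156 and 192 on the control arrays, which overlap, and whether its probes lie in the transgene is not given in the sources used here. Of the marker lists for neurons, glia and photoreceptors, 8 of 8, 5 of 5 and 6 of 6 genes with a probe set of their own were above 40 on at least 1 array. With limma, which tests each probe set in a linear model, the signal with LARK overexpression was higher for 0.339% and lower for 1.21% of the 9432 tested probe sets at an adjusted p under 0.05.

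None of the 7 tested member probe sets passed that test in either direction. Before adjustment 0 of the 7 had a p under 0.05, beside 1020 of all 9432. The members nevertheless took different courses over the arrays. Hsp26, Hsp27 and Hsp68 read about the same multiple of their controls on replicate number 1, from 2.97 to 3.10, and from 1.01 to 1.44 on numbers 2 and 3. Hsc70-3, Hsc70-4 and l(2)efl were below their controls on all 3 numbers in raw signal, Hsc70-3 at 0.51 to 0.60 of the control. Hsp83 and Hsf had no constant direction.

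The small heat shock gene Hsp26 is also transcribed without heat at certain stages of development. Its signal was 2756, 846 and 709 on LARK overexpression arrays 1, 2 and 3 and 890, 703 and 700 on control arrays 1, 2 and 3. Array 1 of LARK overexpression was thus high, while the other 5 arrays lay between 700 and 890 in raw signal, which carries the day scaling. Relative to the median probe set of its array, Hsp26 stood at 26.1, 13.7 and 9.79 with LARK overexpression. In the control it stood at 7.62, 10.6 and 8.88, so the genotypes overlapped. The ratio of LARK overexpression to control was 3.10 on replicate number 1, 1.20 on number 2 and 1.01 on number 3. Over the 3 arrays of each genotype the signals were 1437 ± 1144 and 764 ± 109 (SD, n = 3), a fitted log2 difference of 0.64 (standard error, SE, 0.53, 95% interval -0.48 to 1.75, limma adjusted p = 0.911). With replicates 2 and 3 alone the difference was 0.14 (SE 0.25, adjusted p = 0.803).

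Hsp27, whose product is found in the nucleus as well as the cytoplasm, gave signals of 1117, 240 and 313 with LARK overexpression and 363, 167 and 218 in the control. The ratios were 3.08, 1.44 and 1.44, so LARK overexpression was above control on each number and the excess was concentrated on number 1. Relative to the median probe set of its array, Hsp27 stood at 10.6 on LARK overexpression array 1, at 3.90 and 4.33 on arrays 2 and 3, and at 2.52 to 3.11 on the control arrays. On this scale, which removes the day scaling, the genotypes did not overlap. The fitted log2 difference was 0.89 (SE 0.57, 95% interval -0.31 to 2.09, limma adjusted p = 0.726), and 0.52 (SE 0.29, adjusted p = 0.409) with replicates 2 and 3 alone.

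Hsp68 is an Hsp70-class gene that is switched on by heat. Its signal was 2841, 730 and 870 on the LARK overexpression arrays and 956, 508 and 661 on the control arrays. The ratios by replicate number were 2.97, 1.44 and 1.32, close to those of Hsp27. Relative to the array median it stood at 26.9, 11.8 and 12.0 with LARK overexpression and at 7.66 to 8.39 in the control, again without overlap. The fitted log2 difference was 0.83 (SE 0.54, 95% interval -0.31 to 1.97, limma adjusted p = 0.743), and 0.46 (SE 0.28, adjusted p = 0.440) with replicates 2 and 3 alone. The plot of signals by array shows both the gap on replicate number 1 and its smaller size on the others.

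**Figure D1:**
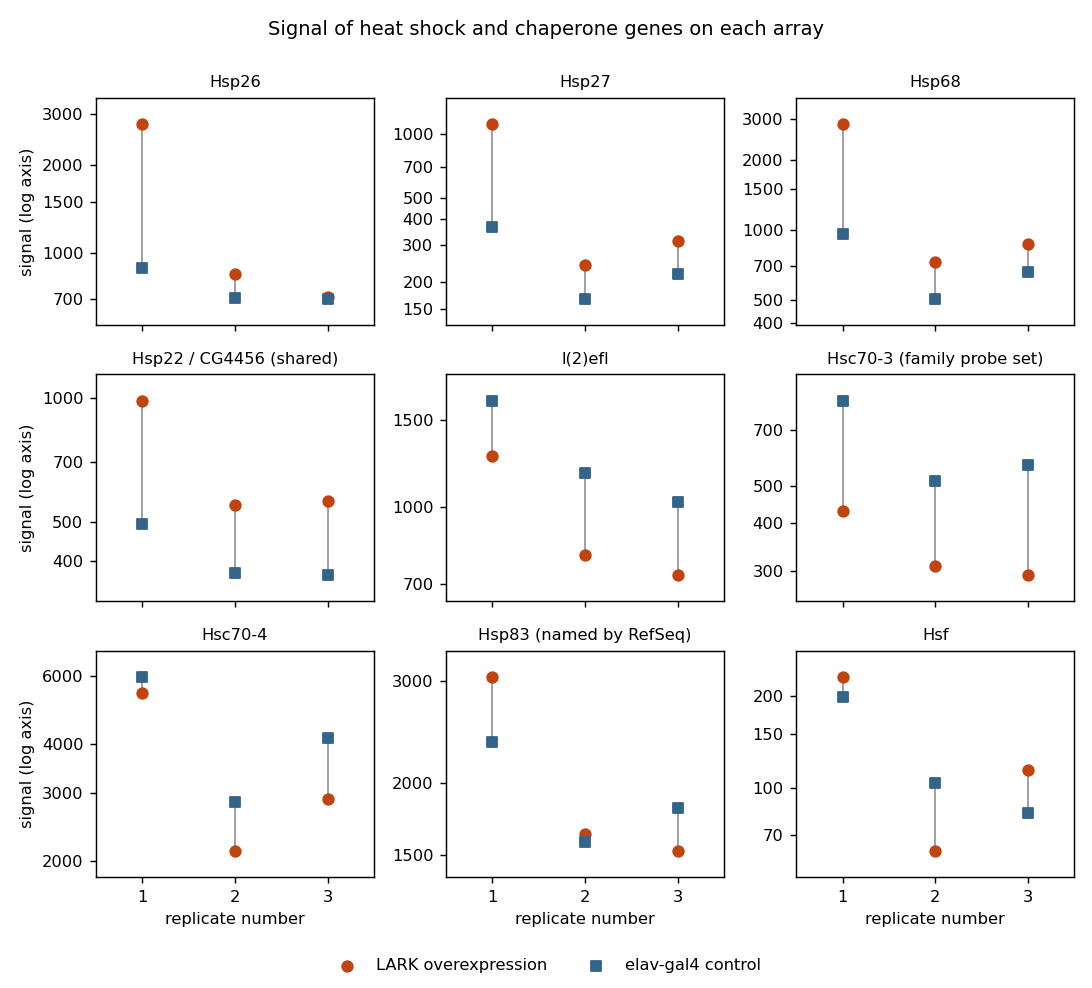
Signal of 9 probe sets (vertical log axis, arbitrary units) against replicate number, with 1 point per array for LARK overexpression (circles) and the elav-gal4 control (squares) and a line joining the arrays hybridized together. Hsp26, Hsp27 and Hsp68 are 2.97 to 3.10 times the control on number 1 and at most 1.44 times on numbers 2 and 3, whereas Hsc70-3 lies below its control on every number.

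The 3 probe sets shared by Hsp22 and CG4456 read above control on each replicate number. Hsp22 encodes a small heat shock protein of the mitochondrion. The first set gave 985, 548 and 562 with LARK overexpression and 494, 374 and 371 in the control, so every LARK overexpression array lay above every control array. On centered arrays the genotypes did not overlap either, as for 13.9% of all tested probe sets. Its ratios were 1.99, 1.46 and 1.51, and the fitted log2 difference was 0.71 (SE 0.45, limma adjusted p = 0.722). A second set, which passed the filter of 40 through LARK overexpression array 1 only, gave 55.3, 23.8 and 34.5 against 26.2, 14.5 and 16.4, a fitted log2 difference of 0.96 (SE 0.48, adjusted p = 0.515). The last set gave 158, 80.4 and 104 against 112, 80.1 and 64.0 and had a difference of 0.40 (SE 0.46, adjusted p = 0.9993). With replicate block, intensity trend and robust prior together, the first set passed (limma adjusted p = 0.0387). Of the fits to all 6 arrays that setting made the most calls over all probe sets, and the replicate block alone made 0. Without LARK overexpression array 1 all values of the second set were at or under 34.5, below the filter, so no test of it without that array is given.

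Of the inducible Hsp70 genes, none had a probe set of its own. A probe set shared by Hsp70Ba, Hsp70Bb, Hsp70Bbb and Hsp70Bc, near-identical copies that the array cannot separate, gave 4248, 732 and 663 with LARK overexpression and 1320, 941 and 1150 in the control. LARK overexpression array 1 was the highest of the 6, and in raw signal arrays 2 and 3 of LARK overexpression were the lowest. Relative to the array median, control array 1 (11.3) lay between LARK overexpression arrays 2 (11.9) and 3 (9.16). The ratio was 3.22 on replicate number 1, 0.78 on number 2 and 0.58 on number 3. A second set, which also carries CG5608, had ratios of 3.20, 0.71 and 0.60. The fitted log2 differences of these sets, 0.18 and 0.15, average values of opposite sign and became -0.58 and -0.61 with replicates 2 and 3 alone (limma adjusted p = 0.313 and 0.292).

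Hsp26, Hsp27, Hsp68 and the Hsp70B genes therefore lay within a narrow band on replicate number 1, at log2 differences of 1.57 to 1.69. Of all tested probe sets 3.0% were over 2-fold higher with LARK overexpression on number 1, against 3 of the 7 members. On numbers 2 and 3 the shares were 8.03% and 8.59% of all probe sets and 0 of 7 members each. The excess of number 1 over the mean of numbers 2 and 3 was 1.49 for Hsp26, 1.10 for Hsp27, 1.11 for Hsp68 and 2.26 for the first Hsp70B set on the log2 scale. An excess over 1, a limit chosen after these values were seen, was found in 8.38% of all probe sets and in 3 of the 7 members. With 1 array of each genotype per replicate number, a difference between the numbers could not be tested.

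Marker lists of several tissues also differed between array 1 and arrays 2 and 3 of LARK overexpression. Their signals were summed and given relative to the array median, since raw sums follow the day scaling. For gut (5 of 5 genes above 40 on at least 1 array) the sum was 1.77 on LARK overexpression array 1 and 30.1 and 26.4 on arrays 2 and 3. On the control arrays it was 0.74 to 1.05. The raw signals of these 5 sets summed to only 86.1, 69.9 and 68.1 on control arrays 1, 2 and 3. Most of them were thus under 40 in the control and passed the filter through LARK overexpression arrays. For muscle (6 of 6) it was 102, 195 and 172 against 74.4 to 105. For the list named germline (3 of 7, Cp36, Mst87F and Vm26Aa) it was 1.67, 4.90 and 4.05 against 1.39 to 1.72. Its other genes bam, dj, Mst84Db and vas were at or under 40 on all arrays, so this sum is not read as germline cells. For fat body (7 of 7) it was 582, 479 and 399 against 419, 676 and 607 on control arrays 1, 2 and 3, and for photoreceptors (6 of 6) 321, 259 and 242 against 255, 335 and 304, so both of these lists lay above control on number 1 and below it on numbers 2 and 3. For glia (5 of 5) it was 40.9, 32.4 and 37.9 against 37.1, 26.9 and 29.1. Such sums are carried by the probe sets of highest signal. Of the 6 tested glial sets, 4, 3 and 3 were below control on numbers 1, 2 and 3, with median log2 differences of -0.15, -0.01 and 0.10. On number 1, 4 of the 7 muscle sets were below control, with a median of -0.08. The part of these cells in the heat shock signals was not tested.

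**Figure D2:**
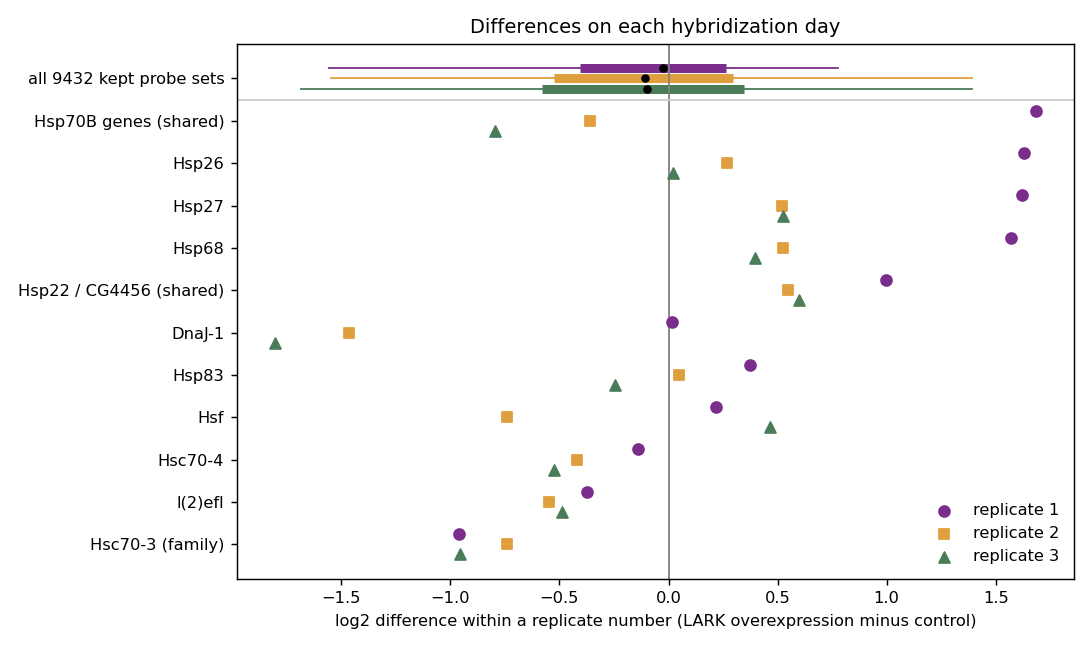
Log2 difference between LARK overexpression and control within each replicate number (horizontal axis), for members, the shared Hsp70B probe set and DnaJ-1, with all 9432 tested probe sets at the top (dot, median; thick bar, quartiles; thin line, 5th to 95th percentile). Hsp26, Hsp27, Hsp68 and the Hsp70B genes lie between 1.57 and 1.69 on number 1, and DnaJ-1 lies at -1.46 and -1.80 on numbers 2 and 3.

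The clustered small heat shock genes did not all share this course. In the RefSeq annotation of assembly Release 6, Hsp22, CG4461, Hsp26, Hsp67Ba, Hsp23 and Hsp27 follow each other in that order on 1 chromosome arm. CG4461, a small heat shock family gene between Hsp22 and Hsp26, gave 1201, 567 and 605 with LARK overexpression and 1156, 782 and 904 in the control. Its log2 differences were 0.06, -0.46 and -0.58, so on number 1, where Hsp26 was at 1.63, it differed little from control. Its fitted difference was -0.33 (SE 0.47, limma adjusted p = 0.9993).

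The members with raw signals below control on each replicate number were Hsc70-3, Hsc70-4 and l(2)efl, 3 of 7 against 26.9% of all tested probe sets. Those above control on each number were Hsp26, Hsp27 and Hsp68, 3 of 7 against 17.6%. On centered arrays, the genotypes did not overlap for 2 members with LARK overexpression higher (Hsp27 and Hsp68, against 13.9% of all probe sets) and for 1 with it lower (Hsc70-3, against 12.2%). With so few members these shares describe the genes and are not evidence about the family.

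Hsc70-3 encodes BiP, the Hsp70 chaperone of the endoplasmic reticulum. Its signal was 429, 308 and 292 with LARK overexpression and 833, 513 and 567 in the control, with ratios of 0.51, 0.60 and 0.52. All 3 LARK overexpression arrays lay below all 3 control arrays. The signals averaged 343 ± 74.8 and 638 ± 172 (SD, n = 3), and the fitted log2 difference was -0.88 (SE 0.45, 95% interval -1.83 to 0.06, limma adjusted p = 0.526). Without LARK overexpression array 1 on centered arrays it was -0.71 (SE 0.20, adjusted p = 0.0942), and with replicates 2 and 3 alone -0.85 (SE 0.24, adjusted p = 0.162). It passed in 1 setting, the replicate block with intensity trend and robust prior (limma adjusted p = 0.0164). Of the fits to all 6 arrays, that setting made the most calls over all probe sets.

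That probe set bears the suffix that the manufacturer gives to sets whose probes match several members of a sequence family, so it may read other genes too. The second Hsc70-3 probe set, which bears no such suffix, was between 2.10 and 16.3 on all 6 arrays, under the filter of 40. Its ratios were 0.83, 0.84 and 1.23. The 2 probe sets named for Hsc70-3 thus gave no common result, since the second had no usable signal.

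Hsc70-4, the main cytosolic Hsp70 cognate, which also uncoats clathrin vesicles at synapses, gave 5403, 2119 and 2880 with LARK overexpression and 5962, 2837 and 4145 in the control. The ratios were 0.91, 0.75 and 0.69, and the groups overlapped. Relative to the array median it stood at 51.2, 34.4 and 39.8 with LARK overexpression and at 51.0, 42.8 and 52.6 in the control. On that scale it was thus level with control on number 1 and below it on numbers 2 and 3. The fitted log2 difference was -0.36 (SE 0.49, 95% interval -1.41 to 0.68, limma adjusted p = 0.9993). Its 2 probe sets shared with Acbp3 read between 42.4 and 143 on all arrays and had ratios of 0.59, 1.57 and 0.94 and of 0.71, 0.86 and 2.30, with no constant direction.

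l(2)efl, a small heat shock family gene outside the cluster, gave 1267, 800 and 730 with LARK overexpression and 1641, 1170 and 1022 in the control. Its ratios of 0.77, 0.68 and 0.71 varied little between numbers. The direction was thus opposite to that of Hsp26 and Hsp27 on each number. The fitted log2 difference was -0.47 (SE 0.45, 95% interval -1.43 to 0.49, limma adjusted p = 0.994).

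Neuron markers and a measure of RNA quality also differed between the genotypes. The summed neuron markers, relative to the array median, were at most 15.6 on the LARK overexpression arrays and 24.4, 25.4 and 28.4 on the control arrays. The sum is carried by the probe sets of highest signal: of the 11 tested neuron probe sets, 9, 5 and 10 were below control on numbers 1, 2 and 3, with median log2 differences of -1.53, 0.14 and -1.01. The ratio of 3′ to 5′ signal of the eIF-4a control transcript, a measure of how complete the labeled RNA was, was 6.52, 6.26 and 6.05 with LARK overexpression and 2.81 to 3.02 in the control. For GAPDH it was 5.06, 4.61 and 3.23 against 2.82 to 4.04, with array 3 inside the control range, and for ACTIN 5.51, 5.79 and 6.21 against 1.89 to 3.41. Their part in the signals of Hsc70-3, Hsc70-4 and l(2)efl, or of the members above control, was not tested.

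Hsp83, the cytosolic Hsp90, which is abundant without stress, gave 3054, 1630 and 1522 with LARK overexpression and 2357, 1577 and 1805 in the control. The ratios were 1.30, 1.03 and 0.84, on both sides of equality. The fitted log2 difference was 0.06 (SE 0.46, 95% interval -0.92 to 1.04, limma adjusted p = 0.9993). Hsf gave 231, 62.0 and 114 against 198, 104 and 82.6, with ratios of 1.16, 0.60 and 1.38 and a fitted difference of -0.02 (SE 0.54, 95% interval -1.16 to 1.12, adjusted p = 0.9993). These intervals leave room for a doubling of either gene.

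**Figure D3:**
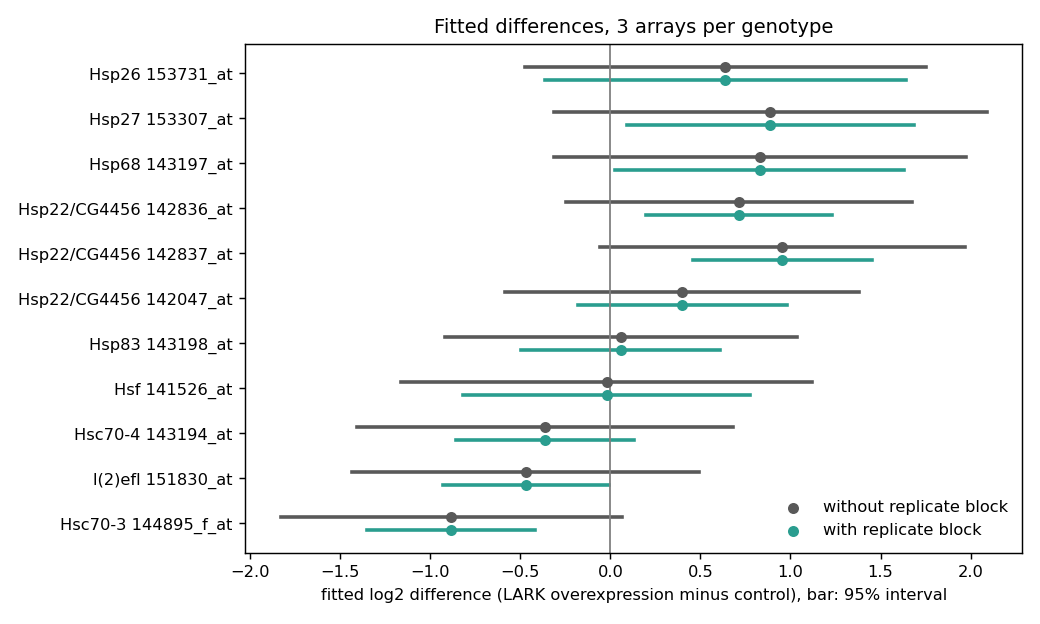
Fitted log2 difference between LARK overexpression and control (points) with its 95% interval (bars) for 11 probe sets, without a replicate block (grey) and with it (green), from 3 arrays per genotype. Every interval without the block includes 0. With the block, before adjustment for the number of probe sets, those of Hsp27, Hsp68, l(2)efl and Hsc70-3 do not. Nor do those of the first and second sets shared by Hsp22 and CG4456. The second set was above the signal filter on LARK overexpression array 1 only (55.3, at most 34.5 on the other arrays). Its interval therefore rests on signals mostly under the filter and is not counted with the others.

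With the replicate number as a block, 4 of the 7 members (Hsp27, Hsp68, Hsc70-3 and l(2)efl) had an unadjusted p under 0.05, against 1903 of all 9432 probe sets, and none passed after adjustment. The adjusted p was 0.213 for Hsp27, 0.237 for Hsp68, 0.118 for Hsc70-3 and 0.240 for l(2)efl. Over all probe sets this fit made 0 calls.

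The wider stress network was examined through 80 other genes with a probe set of their own, of which 71 genes with 77 probe sets were tested. None passed limma's test, and the unadjusted p was under 0.05 for 2 of them, in stv and cnc. The median fitted log2 difference of the 77 was 0.08, with 46 above and 31 below 0, beside a median of -0.07 for all 9432, with 4128 above and 5304 below 0.

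J-domain proteins deliver clients to Hsp70, and DnaJ-1, the Drosophila Hsp40 gene, is itself induced by heat. Its signal was 1149, 324 and 309 with LARK overexpression and 1138, 894 and 1079 in the control. Array 1 of LARK overexpression thus lay with the controls, and arrays 2 and 3 lay far below them. The log2 differences were 0.01, -1.46 and -1.80, an excess of number 1 of 1.65, and the fitted difference was -1.08 (SE 0.53, limma adjusted p = 0.490). Without LARK overexpression replicate 1 it was -1.70 and passed (adjusted p = 0.0327), as it did on centered arrays at -1.36 (adjusted p = 0.0318). Over the J-domain list, 11 of 22 tested genes were above 0 and 11 below, with a median of 0.02, and Droj2 had a difference of 0.10 (SE 0.46).

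Among Hsp70 cognates and cofactors, 5 of 7 probe sets were above 0, with a median of 0.09 and 0 passing. The mitochondrial Hsc70-5 had a difference of 0.05 (SE 0.55). The BAG-domain co-chaperone gene stv had a pair of probe sets that opposed each other: a first set at 57.5, 29.1 and 53.1 against 104, 82.9 and 122 (log2 difference -1.19, SE 0.46, limma adjusted p = 0.286) and a second set at 2036, 686 and 881 against 1195, 461 and 663 (log2 difference 0.58, SE 0.53, adjusted p = 0.959). Both sets kept their own direction on the 3 replicate numbers, so the gene has no single direction here.

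The other small heat shock genes with a probe set of their own, CG4461, CG7409 and CG13133, were all below 0, with a median of -0.77 and 0 of 3 passing. CG7409 gave 1788, 458 and 714 against 2075, 882 and 1576, a difference of -0.77 (SE 0.54, limma adjusted p = 0.813). In the fit these genes thus lay on the other side of 0 from Hsp26 and Hsp27, although CG4461 was at 0.06 on number 1. CG13133 was near or under the filter of 40 on several arrays (72.5, 13.4 and 33.3 against 85.9, 56.4 and 47.4).

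Hsp90 partners and relatives were close to 0, with 7 of 13 probe sets above it and a median of 0.02. The Hsp90 co-chaperone p23 had a difference of -0.28 (SE 0.43), and Gp93, the Hsp90 of the endoplasmic reticulum, of 0.41 (SE 0.44). Of the chaperonins, which fold proteins inside closed rings, 8 of 11 probe sets were above 0, with a median of 0.15. The mitochondrial Hsp60A had a difference of -0.08 (SE 0.48), and the sets of CCT2 had differences of 0.15 and 0.32 (SE 0.45 each). None of the probe sets of both lists passed.

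Folding genes of the endoplasmic reticulum bear on Hsc70-3, which works in the same compartment. Of these 6 of 8 probe sets were above 0, with a median of 0.10, and 0 passed. The disulfide isomerase gene Pdi had a difference of 0.08 (SE 0.48) and the calnexin gene Cnx99A of 0.04 (SE 0.45). Both lay within their SE of 0 and changed sign under some alternatives, so neither has a direction to set beside Hsc70-3.

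Antioxidant genes, which answer oxidative rather than protein-folding stress, had 9 of 13 probe sets above 0, with a median of 0.26 and 0 passing. The glutathione transferase GstD1 had a difference of 0.28 (SE 0.45), and the thioredoxin Trx2 of 0.41 (SE 0.45). The stress transcription factor gene cnc, named after its values were seen, had 3 tested probe sets with differences of -1.22 (SE 0.44, limma adjusted p = 0.243), -1.07 (SE 0.64, adjusted p = 0.670) and -0.35. A further cnc set was at or under 40 on all arrays and was not tested. Turandot genes, which are secreted stress genes of the fat body, had 2 genes with a probe set of their own, TotB and TotE, both under 40 on all arrays.

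**Figure D4:**
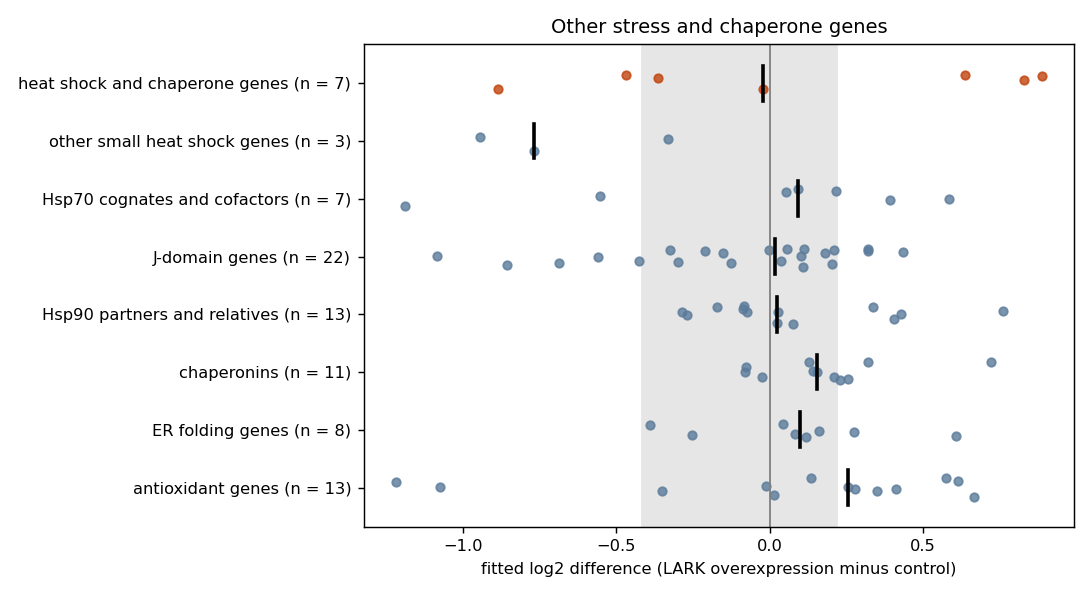
Fitted log2 difference between LARK overexpression and control (horizontal axis) of each tested probe set, for the members (top) and 7 lists of other stress genes, with the number of probe sets, the median as a black line and the quartiles of all 9432 probe sets as a grey band. The members spread from -0.88 to 0.89 with a median of -0.02, and the 77 other stress probe sets from -1.22 to 0.76 with a median of 0.08. Medians of the larger lists lie between 0.02 and 0.26, and that of the other small heat shock genes at -0.77.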

How the data were processed

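Biotin-labeled RNA of adult fly heads was hybridized to Affymetrix Drosophila genome arrays, 3 per genotype. The authors deposited 1 linear signal intensity per probe set and array. The submitters' processing notes name MAS5 for these values, without version or settings. The methods of the study describe GCRMA, so the deposited intensity values were made in another way, and a log2 difference from them need not equal the study's.

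Probe sets with a signal above 40 on 1 array or more were tested, 9432 of the 13966 that are not array controls. Their log2 signals were fitted by genotype in limma 3.58.1 (R 4.3.3), 2-sided, with Benjamini-Hochberg adjustment over all tested probe sets. An adjusted p under 0.05 was a call. Of the 13966, the annotation gave 12443 a single symbol, 327 several and 1196 none; probe sets with several symbols were described but not counted. The members, lists and the rule for named genes (all members, each list gene past the test, otherwise the 2 list genes of highest signal) were chosen with earlier results of these data known. The fit was tested on simulated data.

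Same-numbered arrays were hybridized together, per the instrument files, which pairs them by day. Deviations of such pairs from the genotype means correlated at 0.0936, 0.172 and 0.0256 over probe sets, which are not independent. For pairs of different number the correlations ran from -0.212 to 0.102, so the ranges overlapped. The replicate block, centering, quantile normalization, an offset of 16, a floor of 40, other filters, a trend and robust prior, replicates 2 and 3 alone and leaving out each array were the alternatives.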

Additional observations from a re-analysis of the deposited data

How the results depend on the processing

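Of the member probe sets that carry a single symbol, 0 passed under any alternative but the replicate block with trend and robust prior. That setting called 1 (Hsc70-3), the first set shared by Hsp22 and CG4456, and 2 other stress probe sets (the first sets of stv and cnc). Leaving out each array, with and without centering, called 0 of the single-symbol member sets. It called 0 to 2 other stress probe sets (DnaJ-1 and the second cnc set without LARK overexpression replicate 1). With all arrays the difference of that cnc set went from -1.07 to 0.16 when the signal floor was applied. Its direction thus rests on signals under the floor, and its call is not read as a result for cnc. The fitted log2 differences of Hsp26, Hsp27 and Hsp68 stayed above 0 and those of l(2)efl, Hsc70-3 and Hsc70-4 below 0 under all 22 alternatives. The size of the former depended on array 1 of LARK overexpression. Over left-out arrays Hsp26 ran from 0.03 to 1.08, Hsp27 from 0.21 to 1.32 and Hsp68 from 0.22 to 1.20. Each was lowest without that array on uncentered signals, so these low ends also carry the day scaling. On centered arrays the differences were 0.76, 1.01 and 0.95 with all arrays. Without LARK overexpression array 1 they were 0.37, 0.56 and 0.56 on centered arrays. Hsc70-3 ran from -1.06 to -0.67. When an array is left out of uncentered signals, the day scaling no longer cancels.

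Over all probe sets the count of calls, 146 (32 higher and 114 lower), was 128 (11 and 117) with centering, 118 (10 and 108) with quantile normalization and 214 (108 and 106) with the filter at 100. It was 242 after adding 16, 0 with a floor of 40, 12 without a filter, 230 with a trend and robust prior, 0 with the replicate block and 571 with the block and that prior. Leaving out an array gave 0 to 759. The cause of these differences was not tested. The replicate block alone changed no call of a member or list gene. Centering moved the median difference of all probe sets from -0.07 to 0.06.

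Values near 0 changed sign. Hsp83 became -0.064 with quantile normalization and -0.10 with replicates 2 and 3 alone (-0.26 to 0.32 over left-out arrays), and Hsf became 0.10 with centering and 0.026 with quantile normalization (-0.51 to 0.44). The Hsp70B sets became -0.58 and -0.61 with replicates 2 and 3 alone, and ran from -0.69 to 0.72 and from -0.64 to 0.70 over left-out arrays. With quantile normalization Hsc70-5 became -0.021, Cnx99A -0.022 and Pdi -0.0032, and with replicates 2 and 3 alone Cnx99A became -0.023. Hsp60A became 0.043 with centering, and the second cnc set 0.16 with a floor of 40. Over left-out arrays Hsc70-5 ran from -0.46 to 0.49, Droj2 from -0.12 to 0.36, the first CCT2 set from -0.11 to 0.62, Hsp60A from -0.39 to 0.20, Cnx99A from -0.20 to 0.23, Pdi from -0.25 to 0.36 and the last cnc set from -0.71 to 0.032. The second Hsc70-3 set and the second set shared by Hsp22 and CG4456 are limited by signals under 40 on most or all arrays. The latter passed on centered arrays without LARK overexpression replicate 1, where no value of it reaches the filter, so that pass is void.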
